A study of Drosophila melanogaster with 4 samples.

Results

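Amine transmitters and neuropeptides carry signals between neurons of the fly head, and 5 genes of this signalling were measured here: Hdc and Pu, which make histamine and an amine cofactor, the serotonin receptor gene 5-HT2A, and the peptide precursor genes Nplp1 and AstC. They were chosen by name, as probes annotated to exactly 1 gene and carrying one of these symbols. Each of the 5 had 1 probe, out of 13824 probes and 6793 named genes on the array. The samples were pools of heads of unmated Oregon-R wild-type Drosophila melanogaster males, 10 to 11 days old when the feeding began. They were kept for 3 days in vials of 30 flies either on normal food (NF) or on the same food with the GABA transaminase inhibitor vigabatrin (VGB) at 24 mg per ml. Each of 4 two-colour cDNA arrays compared 1 treated with 1 untreated pool, so n is at most 4. On replicates 1 and 2 the VGB pool was labelled with the dye Cy5, and on replicates 3 and 4 with Cy3.

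In the insect eye and brain, histamine is the transmitter of the photoreceptors and is made from histidine by the decarboxylase that Hdc encodes. Dopamine and serotonin are made by hydroxylases that need the cofactor tetrahydrobiopterin, and their receptors are mostly coupled to G proteins. Neuropeptides are cut from larger precursors, and many are given an amide end before release.

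The values are log ratios of the dyes, taken here as log2 although neither labels nor file state the base, so every percentage of the NF level below rests on that choice. A probe is the mean of 2 adjacent duplicate spots, and each array's median over its probes (1.03, 1.03, 0.51 and 0.44 on replicates 1 to 4) was subtracted. A value of 0 therefore means a ratio equal to that of the median probe, not equal amounts in both pools. Every percentage of the NF level below is likewise relative to the median probe, so it rests on this centring too. The labels do not settle which pool is in the numerator on the dye-swapped replicates. Each mean is given in both readings: as Cy5 over Cy3, where replicates 3 and 4 are turned in sign, and as VGB over NF, where none is turned. If the second reading were NF over VGB, all its signs would reverse.

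Coverage was thin, with 2822, 1280, 1517 and 3231 probes measured on replicates 1 to 4. Only Hdc had a value on all 4 arrays. Pu and Nplp1 had none on replicate 1, and 5-HT2A and AstC none on replicate 2, so these 4 genes rest on 1 array with VGB in Cy5 and 2 with VGB in Cy3. Of 6 photoreceptor markers, 4 were matched to a probe: trpl and Arr1 had values on at least 3 arrays, trp on 2 and Arr2 on none. Of 4 glial markers, 2 were matched, with values on 4 arrays for Gs2 and on 1 for moody. Only 1 of 6 neuronal markers, nSyb, was matched to a probe, with values on 2 arrays. Of 4 muscle markers, 2 were matched (Act88F, Mlc2) and were measured on all 4 arrays. All 4 fat body markers were matched: apolpp was measured on 4 arrays, Lsp2 on 1, and Fbp1 and Yp1 on none. In pooled heads, fewer cells of a type and less RNA per cell cannot be told apart.

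Across all probes with values on at least 3 arrays, limma called 4 of 1114 in the Cy5 over Cy3 reading (0.359%), none of them among the 5 genes. In the VGB over NF reading it called 0 of 1114 (0%). At an unadjusted p under 0.05 the first reading held 8.44% of the probes and 0 of the 5 genes, and the second 14.0% of the probes and 1 of the 5, Hdc. The 5 means ran from -0.25 to -0.03 in the first reading, with a median of -0.24 against -0.04 over all tested probes. They ran from -0.02 to 0.31 in the second, with a median of 0.0047 against 0.07 over all tested probes.

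**Figure D1:**
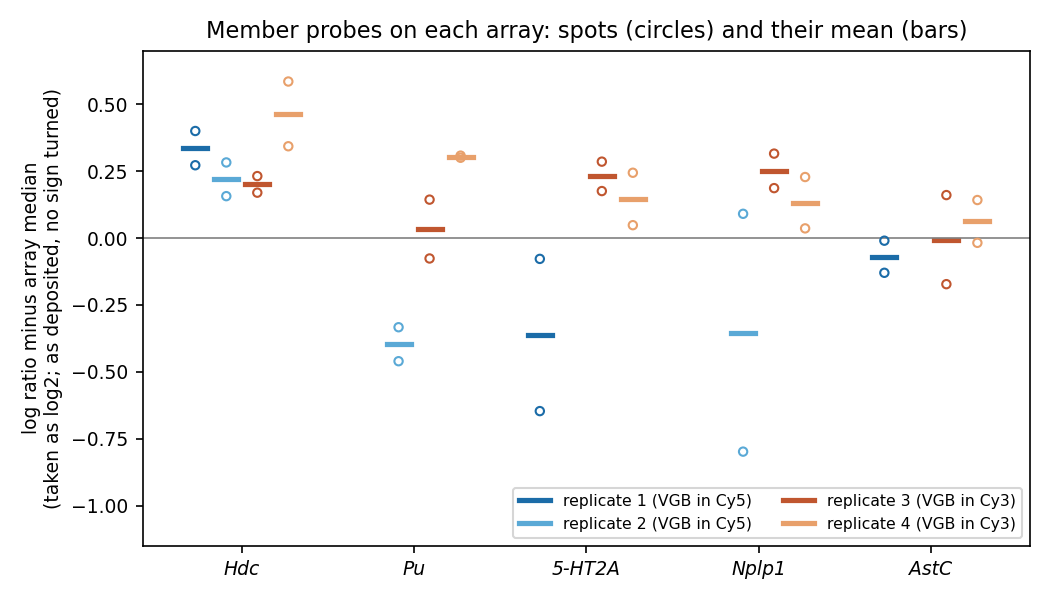
Log ratio minus the array median (taken as log2, no sign turned) of the 5 genes on each array. Circles are the 2 duplicate spots and bars their mean. Hdc lies above 0 on all 4 arrays, from 0.20 to 0.46, while Pu, 5-HT2A and Nplp1 lie below 0 on the one VGB-in-Cy5 array that measured them and above 0 on both VGB-in-Cy3 arrays.

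Hdc, histidine decarboxylase, had centred values of 0.34, 0.22, 0.20 and 0.46 on replicates 1 to 4 before any sign was turned. It lay above the array median on every array, at the 85.4, 76.7, 69.4 and 87.7 percentile of the probes there. Its duplicate spots differed by 0.06 to 0.24, and on replicates 1, 2 and 3 most duplicate pairs of the same array differed by more. Read as VGB over NF, Hdc was 0.31 ± 0.12 (SD, n = 4), or 124% of the NF level, higher on 4 of 4 arrays. It did not pass the test (limma adjusted p = 0.291, 95% interval 0.04 to 0.57). Of the probes on exactly 4 arrays, 18.3% were higher on every array in that reading. Read as Cy5 over Cy3, the same values give 0.34 and 0.22 against -0.20 and -0.46. The arrays of each dye order then lie on opposite sides of 0, and the mean is -0.03 ± 0.37 (SD, n = 4, limma adjusted p = 0.997, 95% interval -0.37 to 0.31). This small mean turned to 0.014 when the median of each run of 576 spots, taken as a printed block, was subtracted in place of the array's median. With treatment and dye order in one limma model over probes on all 4 arrays, and values read as Cy5 over Cy3, the dye term of Hdc was 0.31 (limma adjusted p = 0.131) and the treatment term -0.03 (limma adjusted p = 0.967). With 2 arrays of each dye order, these terms repeat the means of Hdc in the 2 readings by construction. Past the threshold in that model were the dye terms of 6.94% of 591 probes and the treatment terms of 4.57%.

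Pu encodes GTP cyclohydrolase I, which starts the synthesis of tetrahydrobiopterin and of the pteridine eye pigments. Its centred values were -0.40 on replicate 2, 0.03 on replicate 3 and 0.30 on replicate 4. The array with VGB in Cy5 was below the median and both with VGB in Cy3 were above it. Read as Cy5 over Cy3, Pu was lower with VGB on 3 of 3 arrays, with a mean of -0.24 ± 0.19 (SD, n = 3), or 84.4% of NF. Its spots on replicate 3 disagreed in sign, at 0.14 and -0.08 before turning, and from second spots alone 2 of 3 arrays were lower. Of the probes on exactly 3 arrays, 16.3% were lower on every array in this reading. Pu did not pass (limma adjusted p = 0.901), and its 95% interval of -0.60 to 0.11 spans 65.8% to 108% of the NF level. Read as VGB over NF, its mean was -0.02 ± 0.35 (SD, n = 3, limma adjusted p = 0.98, 95% interval -0.38 to 0.34).

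5-HT2A encodes a receptor for serotonin that is coupled to G proteins. It stood at -0.36 on replicate 1, 0.23 on replicate 3 and 0.15 on replicate 4. As for Pu, the VGB-in-Cy5 array was low and both VGB-in-Cy3 arrays were high. On replicate 1 its duplicate spots were at -0.08 and -0.65, both below the median but 0.57 apart, and 22.1% of the duplicate pairs on that array lay farther apart. The mean was -0.25 ± 0.11 (SD, n = 3) read as Cy5 over Cy3, with 3 of 3 arrays lower, or 84.3% of NF. It did not pass (limma adjusted p = 0.889, 95% interval -0.60 to 0.10). With block medians subtracted the mean was -0.12 (limma adjusted p = 0.972). Read as VGB over NF it was 0.0047 ± 0.32 (SD, n = 3, limma adjusted p = 0.995, 95% interval -0.35 to 0.36).

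Nplp1 encodes neuropeptide-like precursor 1, the source of several neuropeptides. It stood at -0.35 on replicate 2, 0.25 on replicate 3 and 0.13 on replicate 4, again low on the VGB-in-Cy5 array and high on the others. On replicate 2 its spots disagreed in sign, at -0.80 and 0.09. Only 2.35% of the duplicate pairs on that array were farther apart than these 0.89. Read as Cy5 over Cy3, the mean was -0.25 ± 0.11 (SD, n = 3, limma adjusted p = 0.889, 95% interval -0.60 to 0.11), and 3 of 3 arrays were lower. From the first spots alone the mean was -0.45 ± 0.31 (SD, n = 3, limma adjusted p = 0.408, 95% interval -0.84 to -0.06). From the second spots alone it was -0.04 ± 0.14 (SD, n = 3, limma adjusted p = 0.993), so its size rests on which spot is read. With block medians subtracted it was -0.14 (limma adjusted p = 0.955). Read as VGB over NF, it was 0.0097 ± 0.32 (SD, n = 3, limma adjusted p = 0.992).

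AstC encodes the precursor of allatostatin C, a peptide named for its inhibition of juvenile hormone synthesis in insects. Its values were -0.07 on replicate 1, -0.006 on replicate 3 and 0.06 on replicate 4, all within the 39.8 to 56.7 percentile of their arrays. From the means of its spots, it had the smallest spread of the 5 genes in both readings. Those spots disagreed in sign on replicate 3 (0.16 and -0.17) and on replicate 4 (-0.02 and 0.14). From single spots, read as Cy5 over Cy3, its spread was not the smallest. Its SD was 0.095 from first spots, above 0.083 for 5-HT2A, and 0.16 from second spots, above 0.14 for Nplp1. The mean was -0.04 ± 0.04 (SD, n = 3, limma adjusted p = 0.997) read as Cy5 over Cy3 and -0.0047 ± 0.07 (SD, n = 3, limma adjusted p = 0.995) read as VGB over NF. The 95% intervals of limma, which borrow spread from all probes, were -0.39 to 0.31 and -0.32 to 0.31. As levels, 76.3% and 124% of NF lie at the ends of the first of these intervals. With block medians subtracted the mean read as Cy5 over Cy3 was -0.11 (limma adjusted p = 0.99).

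**Figure D2:**
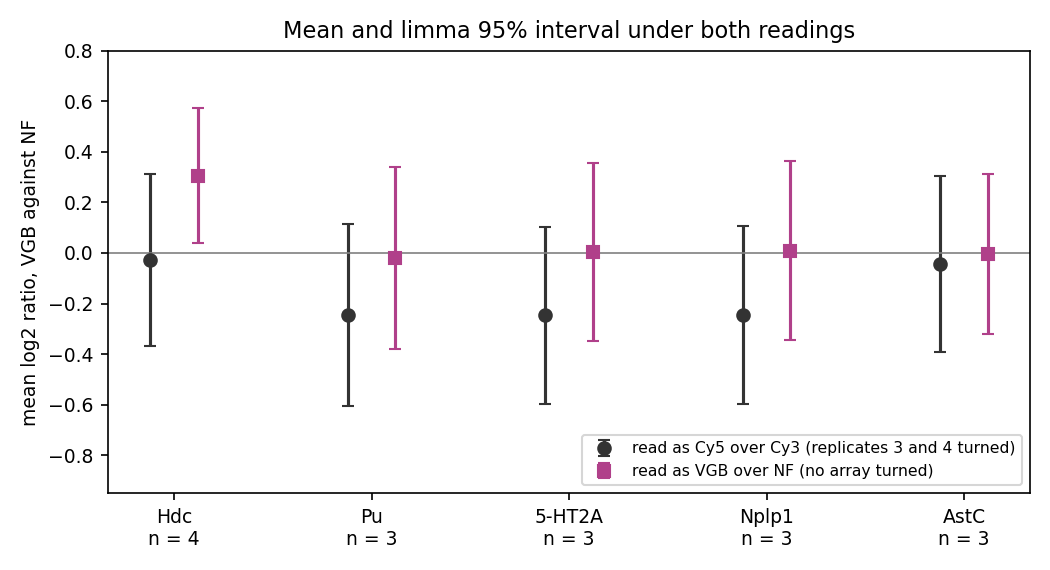
Mean log2 ratio of VGB against NF for each gene with the limma 95% interval, for values read as Cy5 over Cy3 (circles) and as VGB over NF (squares); n is the number of arrays. One interval leaves out 0, that of Hdc read as VGB over NF (0.04 to 0.57), and its adjusted p is 0.291.

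The genes differed in how their values split by dye order. Pu, 5-HT2A and Nplp1 had nearly the same gap between dye orders: the mean over arrays with VGB in Cy5 minus the mean over arrays with VGB in Cy3 was -0.57, -0.55 and -0.55. These gaps lay at the 10.6, 10.9 and 11.5 percentile of the 1114 tested probes, and each rests on 1 array on the Cy5 side. The spots on that array were at -0.33 and -0.46 for Pu, -0.08 and -0.65 for 5-HT2A, and -0.80 and 0.09 for Nplp1. The likeness of the gaps is thus one of spot means, and single spots of 5-HT2A and Nplp1 do not share it. The gaps of Hdc and AstC were -0.05 and -0.10, at the 53.3 and 47.9 percentile. On shared arrays, the root mean square difference was smallest between 5-HT2A and Nplp1 (0.02, 2 arrays). It was largest between 5-HT2A and Hdc (0.44, 3 arrays), and these pairs do not rest on the same arrays. Pu differed from Nplp1 by 0.16 (3 arrays), from 5-HT2A by 0.18 (2 arrays) and from AstC by 0.17 (2 arrays). By this measure Pu was about as close to AstC as to the genes with a like gap. However, the pairs with 2 shared arrays were compared on replicates 3 and 4 only, both with VGB in Cy3. Their differences therefore leave out the gap between dye orders. With 2 arrays of one dye order and 1 of the other, a dye effect does not cancel in a plain mean. A limma model of treatment and dye order over probes on at least 3 arrays was chosen after seeing the data. With values read as Cy5 over Cy3, its treatment terms were -0.28 for Pu, -0.28 for 5-HT2A, -0.27 for Nplp1 and -0.05 for AstC. By construction these are the gaps above divided by 2, so they restate the gaps and are no separate result. With values read as VGB over NF, the 2 terms change places, and the VGB terms were -0.11, -0.09, -0.08 and -0.02. Each of these terms rests on 1 array with VGB in Cy5. Read as Cy5 over Cy3, the treatment terms of that model were called for 1.97% of 1114 probes and none of the 5. Calls over all probes in the other reading were not counted.

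**Figure D3:**
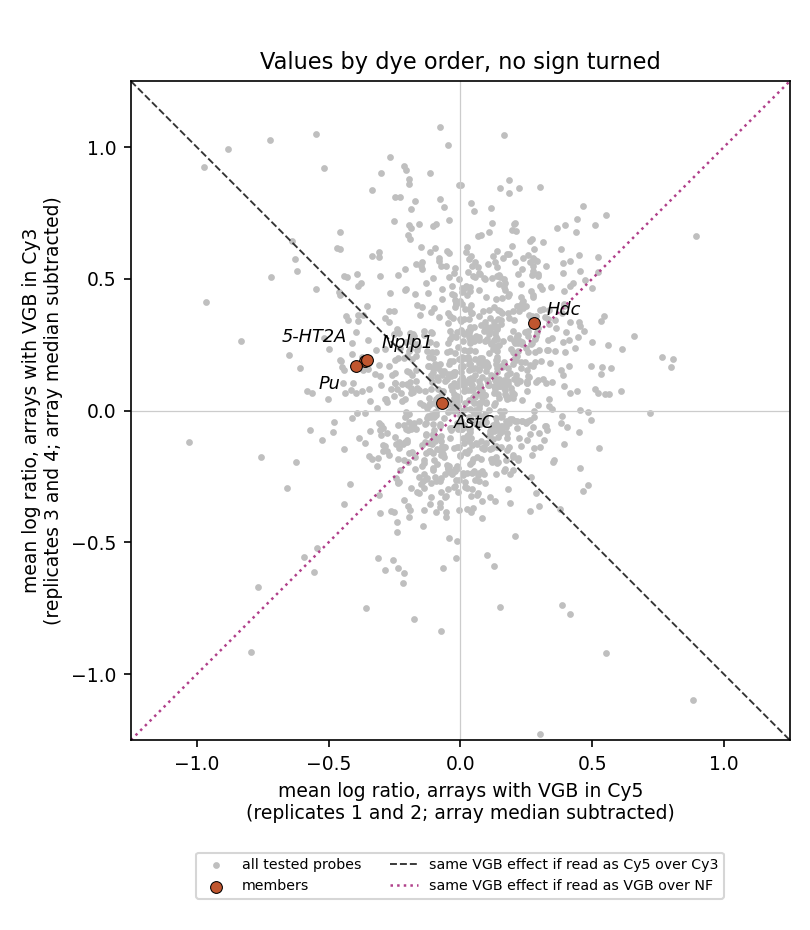
Mean centred log ratio (taken as log2) on arrays with VGB in Cy5 (horizontal) against arrays with VGB in Cy3 (vertical), no sign turned, for the 1114 tested probes (grey; 3 lie outside the axes) and the 5 genes. A VGB effect alike in both dye orders falls on the dashed line if values are Cy5 over Cy3 and on the dotted line if they are VGB over NF: Pu, 5-HT2A and Nplp1 lie in the upper left quadrant, Hdc at 0.28 and 0.33, and AstC near the origin.

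Hdc could be set beside the 311 other probes with a gene name and values on all 4 arrays. The closest by root mean square difference of the centred values were NTPase (0.09) and Xport-A (0.09), against a median difference of 0.35 over these probes. NTPase had 0.22, 0.19, 0.08 and 0.45 on replicates 1 to 4 and Xport-A 0.17, 0.27, 0.16 and 0.42. They were picked for this closeness, so their likeness to Hdc is a description only.

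The other genes of these pathways were read from 6 lists that hold 148 genes, the 5 included. Of these, 60 were matched to a probe, 27 had a value on any array and 9 on at least 3. Without the 5 genes, which were chosen with their coverage known, 22 of 55 matched genes had a value on any array and 4 on at least 3. These are 40.0% and 7.27%, against 43.2% and 8.13% of all named genes on the array. Limma called none of the 9 in either reading, and at an unadjusted p under 0.05 there were 0 and 1 (Hdc). In the Cy5 over Cy3 reading 6 of the 9 means lay below 0, with a median of -0.04, and 61.0% of all tested probes lay below 0. In the VGB over NF reading 4 of the 9 lay below 0, with a median of 0.0047, and 36.0% of all probes did.

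Among enzymes and transporters of the amines, 12 of 19 enzyme genes and 3 of 7 transporter genes were matched to a probe. Besides Hdc and Pu, tan (t), which frees histamine from its storage conjugate carcinine, had values on 3 arrays, -0.07, 0.19 and -0.12 on replicates 1 to 3. Its mean was 0.08 ± 0.14 (SD, n = 3, limma adjusted p = 0.997) read as Cy5 over Cy3 and -0.00033 ± 0.17 (SD, n = 3, limma adjusted p = 0.998) read as VGB over NF. Ddc, pr, Sptr, speck, e and ple, further genes of amine synthesis and conjugation or of the pterin pathway, had values on 1 or 2 arrays, as did the carcinine transporter gene CarT.

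Of 19 amine receptor genes, 8 were matched to a probe and 2 had values on at least 3 arrays. Beside 5-HT2A this was DopEcR, a receptor for dopamine and ecdysteroids, with -0.10, -0.29 and -0.21 on replicates 2 to 4. Its values were below 0 on 3 of 3 arrays before any sign was turned, unlike those of 5-HT2A. Its mean was -0.20 ± 0.10 (SD, n = 3, limma adjusted p = 0.555) read as VGB over NF, where 13.6% of the probes on exactly 3 arrays were lower on every array, and 0.14 ± 0.20 (SD, n = 3, limma adjusted p = 0.988) read as Cy5 over Cy3. A second DopEcR probe had -0.25 on replicate 4 only. The serotonin receptor gene 5-HT7 stood at -0.53 and -0.32 on replicates 3 and 4, on the other side of 0 from 5-HT2A on both, while 5-HT1A had 0.20 on replicate 1. Octbeta2R and TyrR, receptor genes for octopamine and tyramine, had -0.007 and -0.64 on replicate 4, and the spots behind the latter were at -1.58 and 0.31.

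Of 47 neuropeptide genes, 12 were matched to a probe and 6 of these had no value on any array. Beside Nplp1 and AstC, the insulin-like peptide gene Ilp2 had 0.03, -0.12 and 0.71 on replicates 1, 3 and 4. It lay far higher on replicate 4 than on the other arrays, and its means were -0.18 ± 0.46 (SD, n = 3, limma adjusted p = 0.988) read as Cy5 over Cy3 and 0.21 ± 0.44 (SD, n = 3, limma adjusted p = 0.609) read as VGB over NF. Pdf, the peptide of the clock neurons, stood at 0.14 and 0.38 on replicates 3 and 4. Mip and Capa had -0.20 and -0.12 on replicate 4.

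Of 39 peptide receptor genes, 13 were matched to a probe and none had values on at least 3 arrays. AstC-R1, a receptor for allatostatin C, was matched to a probe with no value. Dh31-R had -0.15 and -0.32 and SPR 0.15 and 0.12 on replicates 3 and 4, and Pdfr -0.14 on replicate 4. Of 17 genes for peptide processing and release, 12 were matched and 10 of these had no value. Pal2, a lyase of the amidation that many neuropeptides undergo, was measured on all 4 arrays, at 0.39, 0.58, -0.10 and 0.09 on replicates 1 to 4. It was higher on both VGB-in-Cy5 arrays than on either VGB-in-Cy3 array, and how many of all probes split in this way was not counted. Its mean was 0.24 ± 0.30 (SD, n = 4) in both readings, with limma adjusted p of 0.861 (Cy5 over Cy3) and 0.461 (VGB over NF). Phm, the monooxygenase that acts before this lyase, had 0.48 on replicate 4.

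**Figure D4:**
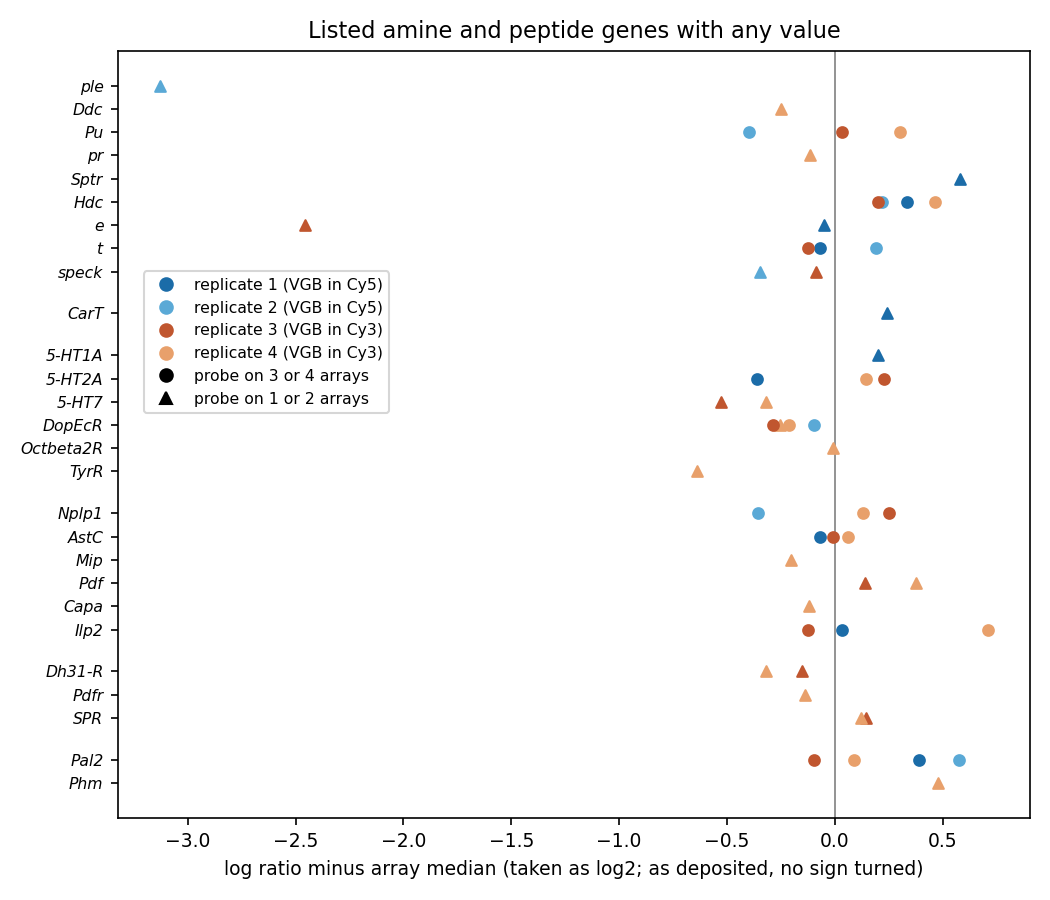
Log ratio minus the array median (taken as log2, no sign turned) for each of the 27 listed genes with any value, grouped from top to bottom as amine enzymes, amine transport, amine receptors, neuropeptides, peptide receptors and peptide processing. Circles are probes on 3 or 4 arrays and triangles probes on 1 or 2; ple (-3.13) and e (-2.46) lie far to the left of the rest.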

How the data were processed

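The authors deposited log ratios of the 2 dyes for 27648 spots, taken here as log2. Per the labels and the design text, slides were quantified with GenePix Pro 6.0, ratio-normalized with Acuity 4.0 and filtered on saturation, flags, uniformity and signal to noise, and tested with SAM 2.21. Raw intensities and depth are not used here, so the number of arrays limits the precision. Log base, centring and direction are not stated. Adjacent duplicates were averaged into 13824 probes, of which 7558 had 1 gene in GEO's platform annotation and 7447 of those a current symbol by Entrez identifier. Each array's median was subtracted. Limma 3.58.1 (R 4.3.3; lmFit, eBayes, intercept only, two-sided, Benjamini-Hochberg at 0.05) was fitted over the 1114 probes on at least 3 arrays and tested on simulated data. Intervals are 95% and unadjusted. All members, every listed gene with a value, and the 2 probes most like Hdc were named by rule. Members and lists were chosen with earlier results of these data known. Each array is its own VGB and NF pair of pools, called biological replicates by the design text.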

Additional observations from a re-analysis of the deposited data

Results flagged for a closer look

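Of the 2809 duplicate pairs with both values on replicate 1, 8.58% lay over 1 log2 unit apart. The shares were 2.11%, 1.72% and 1.70% for replicates 2 to 4, so this array stood apart from the others. Of the 5 genes, Hdc, 5-HT2A and AstC have a value there. Their spots on it differed by 0.13, 0.57 and 0.12. Without replicate 1, the means read as Cy5 over Cy3 were -0.15, -0.19 and -0.03, and none passed. Of 10 quantities looked at in this way this was the only one marked, and chance marks about 1 in 20.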

How the results depend on the processing

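No setting brought any of the 5 genes past the threshold (87 values over the alternatives, limma adjusted p from 0.291 to 0.999), and 68 of them kept the sign of the Cy5 over Cy3 mean. Some of the 68 repeat that mean by construction, so their sign could not change. These are the settings of at least 2 arrays and of gene level, and those that leave out an array without a value for the gene. For Hdc they also include the fits on all 4 arrays and with a dye term. The VGB over NF reading turned 5-HT2A to 0.0047, Nplp1 to 0.0097 and Hdc to 0.31. In that reading, leaving out 1 array at a time (a setting chosen after seeing the data) moved 5-HT2A from -0.11 to 0.19, Pu from -0.18 to 0.17, Hdc from 0.25 to 0.34 (0.29 without replicate 1, 0.33 without replicate 2), Nplp1 from -0.11 to 0.19 and AstC from -0.04 to 0.028. In the Cy5 over Cy3 reading the ranges were -0.30 to -0.19, -0.35 to -0.17, -0.15 to 0.12, -0.30 to -0.19 and -0.07 to -0.03, and Hdc stood at 0.12 without replicate 4 and 0.03 without replicate 3. Hdc also changed sign when no median was subtracted (0.25, with replicates 3 and 4 still turned). It did so too on centring each run of 576 spots, taken as a printed block (0.014), and with quantile normalization (0.0090). Block centring lowered 5-HT2A to -0.12, Nplp1 to -0.14 and Pu to -0.17. AstC was 0.0068 from second spots alone.

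Over all probes, the counts higher and lower were 1 and 3 in the Cy5 over Cy3 reading. They were 0 and 0 in the other reading, without centring and when 2 arrays sufficed, 0 and 1 after block centring, 1 and 5 with quantile normalization or with the first spots alone, 0 and 2 with all 4 arrays only, and 2 and 13 at gene level. With the dye term, and values read as Cy5 over Cy3, they were 1 and 26 on all 4 arrays. On at least 3 arrays they were 2 and 20 (like the single spots, a setting chosen after the data were seen). Leaving out 1 array gave 0 to 6 higher and 0 to 17 lower, or 0 and 0 to 1 in the other reading. The extremes were 6 and 17 without replicate 2 and 0 and 0 without replicate 4. Each array holds its own treated and untreated pool, so every fit is already paired within arrays, and with 1 group no further replicate block could be added. The cause of these shifts was not tested.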

Other observations

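Among the listed genes with probes on 1 or 2 arrays, 25 values ran from -3.13 to 0.58 with no sign turned, 17 below and 8 above the array median. The lowest was that of ple, tyrosine hydroxylase of the dopamine pathway, on replicate 2, the lowest of the 1280 probes measured there. It rests on 1 spot, the second, since the first had no value. Next was e (ebony), which joins beta-alanine to dopamine and histamine, at -2.46 on replicate 3. Its spots agreed in sign at -2.61 and -2.31, and only 11 probes on that array were at or below it. On replicate 1 the same probe stood at -0.05. The low value of ple has no second array to be set against, and that of e was not seen again on the one other array that measured it. Without them, the remaining 22 values ran from -0.64 to 0.58.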
